A study of Mus musculus with 6 samples.

Results

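The microRNA host transcripts described here are 1700016P03Rik, whose annotated introns hold the hairpins of miR-212 and miR-132, and 3 further hosts, Mir22hg, Mir17hg and Mir99ahg. Ovca2, a protein-coding gene that overlaps 1700016P03Rik on the opposite strand, was taken with them. The rule that gave these genes named their symbols with the result for forskolin against DMSO in view (the members were selected on their counts, fold changes and calls there). The values of the 5 genes in that comparison are therefore given as a description. Where calls of these genes, or the authors' adjusted p, are printed below, they belong to that description and are not a test of the genes. All 5 symbols were among the 37411 gene rows of the count table, and all 5 were among the 16233 rows that passed the low-count filter, with at least 19 counts in each library.

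The libraries came from hippocampal neurons of newborn (postnatal day 0) pups of the CD-1 IGS strain, an outbred mouse stock, grown for 16 days in culture. Cells of 3 libraries (1, 2 and 3) received dimethyl sulfoxide (DMSO), the solvent, and those of 3 libraries (4, 5 and 6) received 50 µM forskolin in an equal volume, each for 30 min. Forskolin activates adenylyl cyclase and so raises cyclic AMP. No genetic change is named for either group. The labels do not say whether the libraries of a group came from separate cultures or dissections, so the p-values below measure the spread between these libraries.

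A microRNA begins as a hairpin inside a longer primary transcript, often a noncoding host gene. The nuclear enzyme Drosha cuts the hairpin out, Dicer trims it to a duplex, and an Argonaute protein carries one strand to messenger RNAs that match its seed, the bases near its 5′ end. The miR-132 and miR-212 pair is known in neurons as a product of a single primary transcript induced by the cyclic AMP-responsive transcription factor CREB, and it is studied for effects on dendrites, spines and synaptic function.

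The mature sequences of the first host are shown because their 3p strands share a seed and so address the same target sites. Capitals mark the seed, bases 2 to 8 from the 5′ end, and all mature and hairpin sequences are those of RefSeq for GRCm38.p6.
mmu-miR-132-3p: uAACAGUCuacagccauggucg
mmu-miR-212-3p: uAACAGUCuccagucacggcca
mmu-miR-132-5p: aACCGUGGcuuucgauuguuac
mmu-miR-212-5p: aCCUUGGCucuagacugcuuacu
The 3p strands were identical at 17 of 22 aligned positions. With positions counted from the 5′ end and miR-132-3p given first, they differed by A10C, C14U, U17C, U20C and G22A, all outside the seed. The 5p strands did not share a seed and were identical at 9 of 22 positions.

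The hairpins themselves are shown because the count table has a row for each of them beside the row of their host. Capitals mark the mature strands.
Mir132: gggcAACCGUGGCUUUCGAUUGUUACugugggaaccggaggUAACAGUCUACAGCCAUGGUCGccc
Mir212: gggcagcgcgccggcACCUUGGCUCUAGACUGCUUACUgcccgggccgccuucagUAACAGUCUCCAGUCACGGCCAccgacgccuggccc
In GRCm38, Mir212 spans chr11:75173388-75173478 and Mir132 spans chr11:75173682-75173747, both on the plus strand and both in an intron of the single annotated transcript of 1700016P03Rik (chr11:75172560-75177633).

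The other hosts carry microRNAs with seeds other than that of miR-132-3p and miR-212-3p. One mature strand per hairpin is shown for the 2 hosts whose groups did not overlap, Mir22hg and Mir99ahg.
mmu-miR-22-3p: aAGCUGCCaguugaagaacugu
mmu-miR-99a-5p: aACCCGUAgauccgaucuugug
mmu-let-7c-5p: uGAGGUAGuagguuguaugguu
mmu-miR-125b-5p: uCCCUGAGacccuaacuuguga
Mir22 lies in an exon of Mir22hg (chr11:75461539-75466676), in both annotated transcripts. Mir99a, Mirlet7c-1 and Mir125b-2 lie in introns of Mir99ahg, which spans 537111 bp (chr16:77236317-77773427), and in an exon of none of its 17 annotated transcripts. Mir17hg (chr14:115042879-115046727) holds the 6 hairpins of the miR-17 to miR-92 cluster, all in its exon sequence.

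One library stood apart from its group. Leaving out forskolin library 6 raised the number of genes that edgeR's quasi-likelihood test called higher (Benjamini-Hochberg adjusted p under 0.05) from 28 to 2796. Leaving out any other single library left 0 calls. The summed level of 12 microglia markers was 23.0 to 35.3 CPM (counts as a share of the TMM-scaled library total, on the usual scale of that unit) in the DMSO libraries, 227 and 377 CPM in libraries 4 and 5, and 25.1 CPM in library 6, with no marker at 0 in any library. The 14 neuron markers summed to 4870 to 6170 CPM in DMSO, 3570 and 3820 CPM in libraries 4 and 5, and 5740 CPM in library 6, so the labelled cell type was present in all 6. The 10 astrocyte markers summed to 7070 to 8670 CPM over all libraries, and the 12 oligodendrocyte-lineage markers to 765 to 1690 CPM. Mitochondrial ribosomal RNA took 14.0 to 23.7% of DMSO counts and 26.9 to 33.3% of forskolin counts. In such bulk samples, a different number of cells of a type and a different amount of RNA per cell cannot be told apart. The part of these differences in the results below was not tested, except where a value is given.

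1700016P03Rik, the host of miR-132 and miR-212, had 36, 19 and 30 counts with DMSO (libraries 1 to 3) and 317, 245 and 326 counts after forskolin (libraries 4 to 6). These were 1.12, 0.624 and 0.842 CPM with DMSO and 6.73, 7.20 and 9.74 CPM after forskolin. The lowest forskolin library was far above the highest DMSO library, and library 6 held the highest level of all 6. In library 6 the microglia and neuron marker sums were within the DMSO range, the oligodendrocyte-lineage and astrocyte sums (765 and 7070 CPM) were under it (946 to 1020 and 7150 to 7870 CPM), and the mitochondrial ribosomal RNA share (26.9%) was above it. The part of these values in the level was not tested. The group means were 0.863 ± 0.251 and 7.89 ± 1.62 CPM (SD, n = 3), a ratio of 9.14, and the fitted log2 fold change was 3.19 ± 0.31 (SE). Over the 13 other ways of fitting or subsetting the data it ran from 2.99 to 3.45. The transcript is short, with 863 exon bases.

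**Figure D1:**
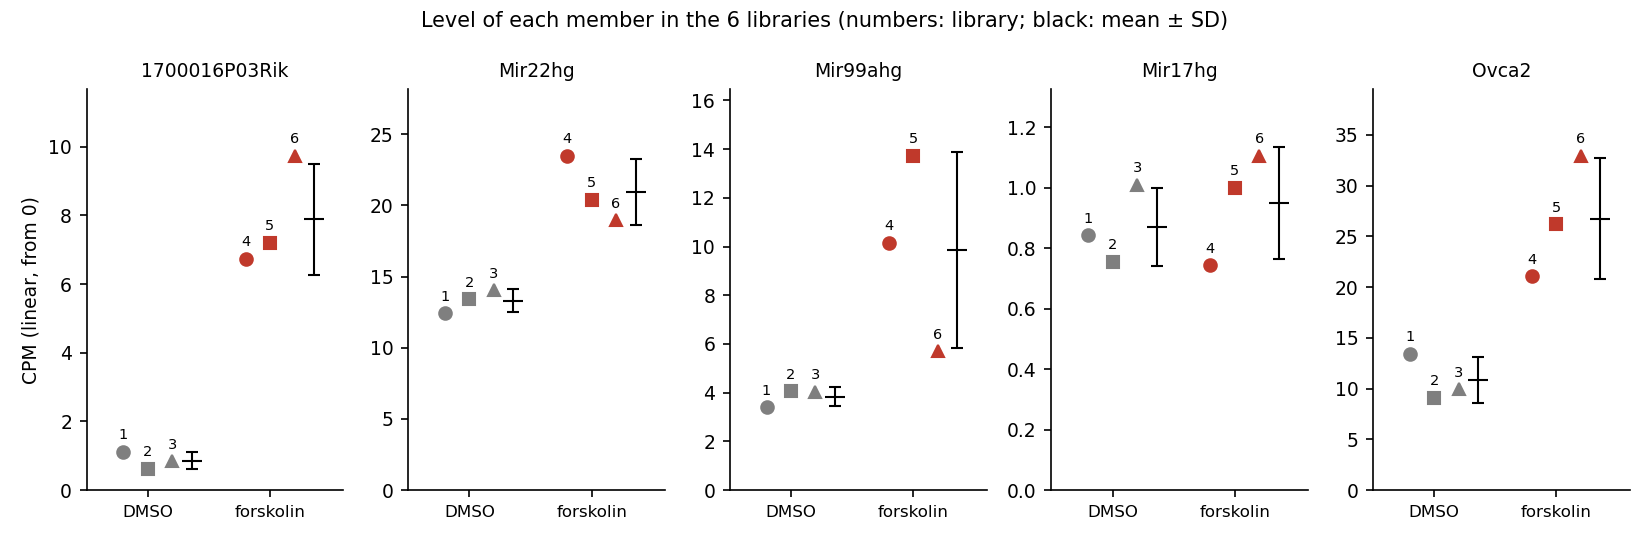
CPM (vertical axis, linear from 0, a separate scale per gene) of the 5 genes in DMSO libraries 1 to 3 (grey) and forskolin libraries 4 to 6 (red), with the mean ± SD of 3 libraries in black. The groups lie apart in 1700016P03Rik, Mir22hg, Mir99ahg and Ovca2, library 6 is the highest in 1700016P03Rik and Ovca2 and the lowest forskolin library in Mir22hg and Mir99ahg, and the groups of Mir17hg overlap.

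Ovca2, a serine hydrolase family gene, was the coding member of the same locus. It had 13.5, 9.12 and 9.96 CPM with DMSO (libraries 1 to 3) and 21.1, 26.2 and 32.9 CPM after forskolin (libraries 4 to 6). The groups did not overlap, and library 6 was the highest, as for 1700016P03Rik. The means were 10.8 ± 2.30 and 26.7 ± 5.95 CPM (SD, n = 3), with a fitted log2 fold change of 1.30 ± 0.23 (SE).

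The rows of these genes cannot be read as separate measurements. Ovca2 (chr11:75175942-75178835, minus strand) covers 641 of the 863 exon bases of 1700016P03Rik (74.3%) from the opposite strand, which is 24.0% of its own 2670 exon bases. Whether the counting used strand is not given in the sources used here, and without strand, reads over the shared bases cannot be told apart. Ovca2 also shares 969 exon bases with Dph1, a gene of diphthamide synthesis transcribed from the same strand, and is 36.3% covered by it.

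Dph1 was the nearest protein-coding gene of 1700016P03Rik without an overlap, 10 bp away. It had 13.7, 14.4 and 12.1 CPM with DMSO (libraries 1 to 3) and 11.7, 13.1 and 14.0 CPM after forskolin (libraries 4 to 6), with overlapping groups. Its log2 fold change was -0.05 ± 0.15 (SE; edgeR adjusted p = 0.857). The ratio of Ovca2 to Dph1 was 0.635 to 0.984 in the DMSO libraries and 1.80, 2.01 and 2.35 in libraries 4, 5 and 6. No forskolin library lay above the DMSO range for Dph1, whereas all 3 did for Ovca2. The ratio of 1700016P03Rik to Ovca2 was 0.0683 to 0.0845 in DMSO and 0.275 to 0.320 with forskolin, so the noncoding row was higher by more, in proportion, than the coding row.

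The hairpin rows did not follow their host in every library. Mir132 held 10, 6 and 6 counts with DMSO (libraries 1 to 3) and 34, 19 and 5 counts after forskolin (libraries 4 to 6). Mir212 held 25, 10 and 11 counts in DMSO and 31, 43 and 2 counts with forskolin. Both rows overlapped between the groups, and both were lowest in library 6, where the host was highest. Library 6 was also lowest in the sum of all rows typed as microRNA genes, at 1849 counts against 2667 to 8173 in the others. The part of this in the hairpin rows was not tested. Summed, the hairpin rows gave 35, 16 and 17 counts in DMSO and 65, 62 and 7 counts with forskolin. The 95% exact Poisson interval, which covers counting error only, was 2.81 to 14.4 counts in library 6 and 47.5 to 79.5 in library 5. Relative to the host's counts, the hairpin rows were 56.7 to 97.2% in DMSO, 20.5 and 25.3% in libraries 4 and 5, and 2.15% in library 6. The labels name total RNA and no selection of small RNA, and the hairpins are 66 and 91 bases long, so these rows are not a measure of the mature microRNAs.

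**Figure D2:**
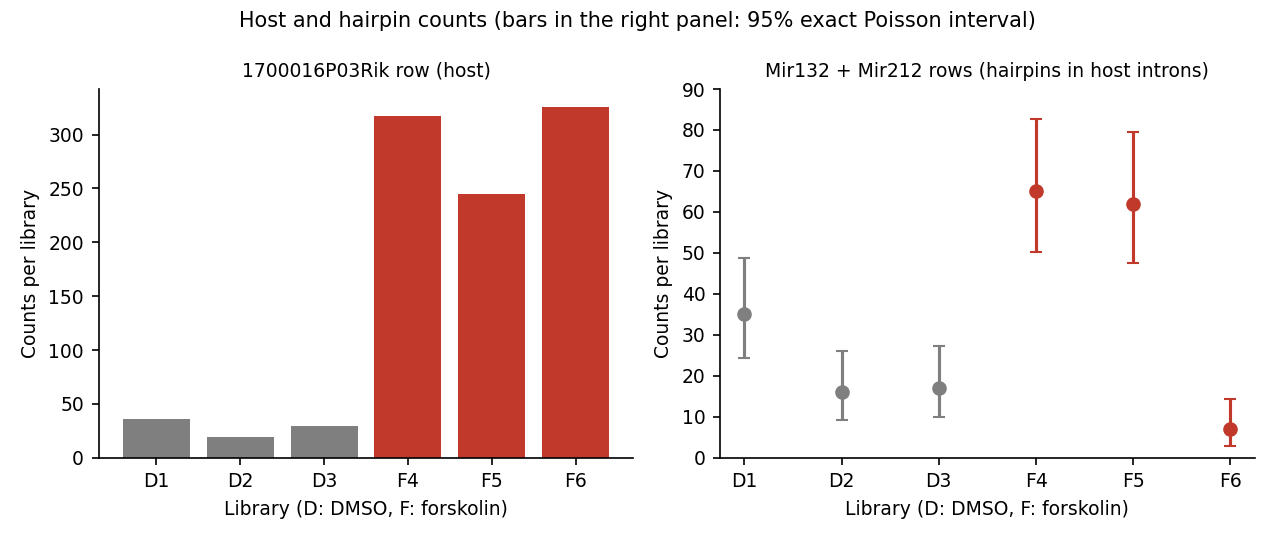
Counts per library (vertical axes, linear from 0) of the 1700016P03Rik row (left, bars) and of the Mir132 and Mir212 rows together (right, points with 95% exact Poisson intervals), in DMSO (grey, D1 to D3) and forskolin (red, F4 to F6) libraries. The host has 245 to 326 counts in all 3 forskolin libraries, whereas the hairpin rows have 65 and 62 counts in libraries 4 and 5 and 7 in library 6.

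Mir22hg, the host of miR-22, had 398, 408 and 501 counts with DMSO (libraries 1 to 3) and 1105, 694 and 635 counts after forskolin (libraries 4 to 6). On the CPM scale these were 12.4, 13.4 and 14.1 in DMSO and 23.5, 20.4 and 19.0 with forskolin. The groups lay apart, and the spread within each was small, with coefficients of variation of 6.14 and 11%. The means of 13.3 ± 0.816 and 20.9 ± 2.30 CPM (SD, n = 3) gave a ratio of 1.58, and the fitted log2 fold change was 0.66 ± 0.14 (SE). It fell to 0.50 once a trend with GC content was removed from each library. That trend was fitted to each gene's log2 CPM relative to its mean over the 6 libraries. Removing it can also take out a difference between the groups that goes with GC content. No count fell on the Mir22 row in any library, although the hairpin lies in a host exon. Tlcd2, a protein-coding gene on the same strand that shares 206 exon bases with Mir22hg, lay at 0.0984 to 0.168 CPM in DMSO and 0.119 to 0.276 CPM with forskolin, under the low-count filter, with overlapping groups.

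Mir22hg and 1700016P03Rik lie 283.9 kb apart on chromosome 11. Near the latter, Smg6, an endonuclease of nonsense-mediated decay, had means of 41.8 ± 0.701 and 41.8 ± 4.57 CPM (SD, n = 3) and a log2 fold change of 0.00 ± 0.11 (SE; edgeR adjusted p = 0.996). Hic1, a transcriptional repressor 3041 bp from 1700016P03Rik, ranged from 1.96 to 8.62 CPM in DMSO and from 0.866 to 5.204 CPM with forskolin. Smg6 and Hic1 were chosen after their values were seen.

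Mir99ahg, the host of miR-99a, let-7c and miR-125b, had 109, 124 and 144 counts with DMSO (libraries 1 to 3) and 478, 467 and 191 counts after forskolin (libraries 4 to 6). Its levels were 3.40, 4.07 and 4.04 CPM in DMSO and 10.2, 13.7 and 5.70 CPM with forskolin. The groups did not overlap, but library 6 lay nearer to the DMSO libraries than to libraries 4 and 5, at 0.57 above the DMSO mean on the log2 scale against 1.40 and 1.84. The means were 3.84 ± 0.376 and 9.86 ± 4.02 CPM (SD, n = 3), with a fitted log2 fold change of 1.36 ± 0.33 (SE). It was 0.90 with the GC trend removed and 1.62 without library 6. Several marker sums were also at their extremes in libraries 4 and 5. The microglia sum is given above, and there the oligodendrocyte-lineage sum was 1220 and 1690 CPM against 946 to 1020 in DMSO and 765 in library 6, while neuron markers were low. In library 6 Mir99ahg lay above every DMSO library. The part of these marker sums in the Mir99ahg level was not tested.

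Rows annotated inside the introns of Mir99ahg were, in sum, high in libraries 4 and 5. Beside the 3 hairpin rows, the host's strand has 11 such rows with no base in a host exon, all of the class GENCODE lists as still to be experimentally checked. Together they held 47, 63 and 117 counts with DMSO (libraries 1 to 3) and 355, 323 and 98 counts after forskolin (libraries 4 to 6). These sums were 1.47, 2.07 and 3.28 CPM in DMSO and 7.54, 9.49 and 2.93 CPM with forskolin, and library 6 lay within the DMSO range, unlike for Mir99ahg itself. Of the 11 rows, libraries 4 and 5 lay above every DMSO library in 8, and library 6 lay within the DMSO range in 9. Other rows differed from the sum. In Gm38071 library 6 stood beside libraries 4 and 5, at 0.508 CPM against 0.510 and 0.499. Mir99a and Mirlet7c-1, also intronic, were sparse. Mir99a had 5, 3 and 0 counts in DMSO and 22, 8 and 4 with forskolin. Mirlet7c-1 had 4, 6 and 1 counts in DMSO and 23, 15 and 8 with forskolin. Mir125b-2 had at most 1 count in any library, which is under the 3 counts taken here as the floor. Gm11146, the nearest gene annotated as coding, was under the low-count filter, with 0.294 CPM or less in every library.

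**Figure D3:**
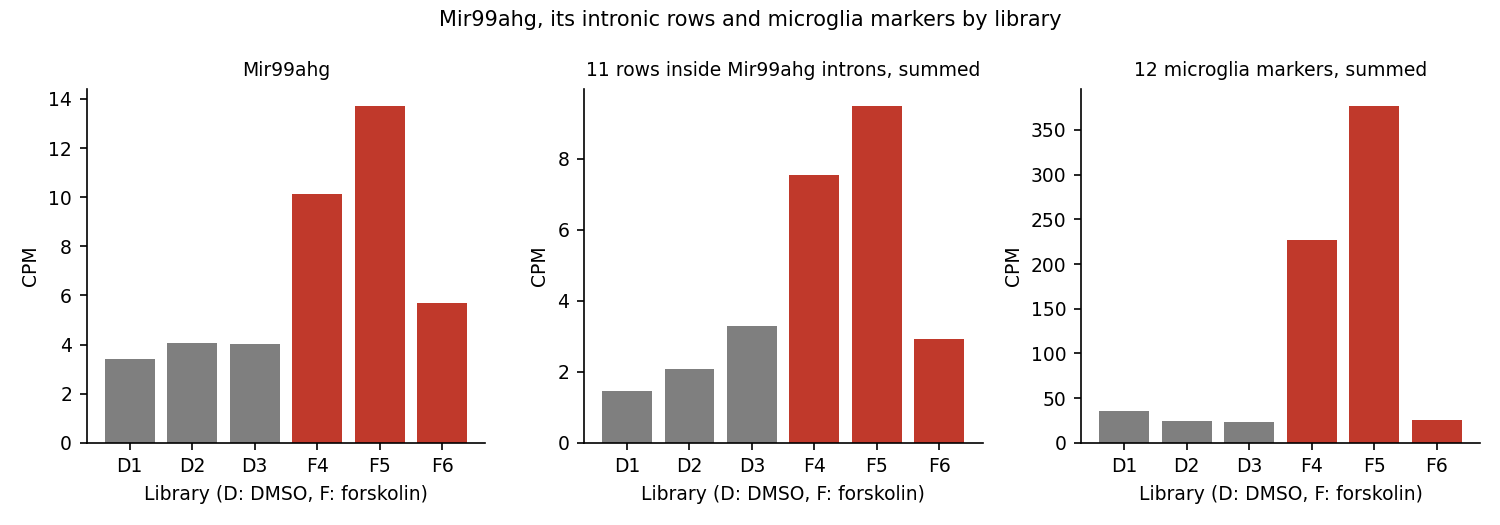
CPM (vertical axes, linear from 0) in each DMSO (grey) and forskolin (red) library of Mir99ahg, of the 11 same-strand rows inside its introns summed, and of 12 microglia markers summed. Libraries 4 and 5 are the highest in all 3 panels, and library 6 is at 5.70, 2.93 and 25.1 CPM.

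Mir17hg, the host of the miR-17 to miR-92 cluster, had 27, 23 and 36 counts with DMSO (libraries 1 to 3) and 35, 34 and 37 counts after forskolin (libraries 4 to 6). Its levels were 0.843, 0.755 and 1.01 CPM in DMSO and 0.743, 0.999 and 1.10 CPM with forskolin. The groups overlapped, and the means of 0.869 ± 0.1295 and 0.949 ± 0.186 CPM (SD, n = 3) differed by less than the spread within either group. The fitted log2 fold change was 0.12 ± 0.29 (SE), and its sign turned with the GC trend removed, to -0.28, and without library 6, to -0.02. With at most 37 counts per library, a small change was not detectable at this depth. The rows of its 6 hairpins held no count in any library. The cluster is known for high levels in dividing cells, and the 6 markers of dividing cells summed to 91.4 to 114 CPM in DMSO and to 175, 247 and 104 CPM in libraries 4, 5 and 6. Gpc5, a glypican gene 45488 bp away and the nearest coding gene, had 6.62 to 9.68 CPM in DMSO and 3.04, 2.85 and 9.91 CPM in libraries 4, 5 and 6 (edgeR adjusted p = 0.456).

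Levels were compared between genes per kilobase of annotated exon. The exon length pools all annotated transcripts of a gene, 17 for Mir99ahg (14303 bases) and 1 for 1700016P03Rik (863 bases). Which transcripts the cells held was not tested, so the order of genes on this scale depends on the annotation. Without the division, the DMSO mean of Mir99ahg (3.84 CPM) was above that of 1700016P03Rik (0.863 CPM). In DMSO, Mir22hg was the highest at 6.91 ± 0.424 CPM per kb (SD, n = 3), followed by Ovca2 at 4.06 ± 0.862 and 1700016P03Rik at 1.0 ± 0.291. Mir99ahg and Mir17hg were the lowest at 0.268 ± 0.0263 and 0.246 ± 0.0366 CPM per kb, and this last pair did not differ beyond its spread. With forskolin, Mir22hg, Ovca2 and 1700016P03Rik stood at 10.9 ± 1.197, 10.01 ± 2.23 and 9.14 ± 1.87 CPM per kb, levels that did not differ beyond their spread. Mir99ahg followed at 0.689 ± 0.281 and Mir17hg at 0.268 ± 0.0526 CPM per kb. The miR-132 and miR-212 host was thus well under the miR-22 host in DMSO and beside it after 30 min of forskolin. The shared exon bases of 1700016P03Rik and Ovca2 apply to these levels too.

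**Figure D4:**
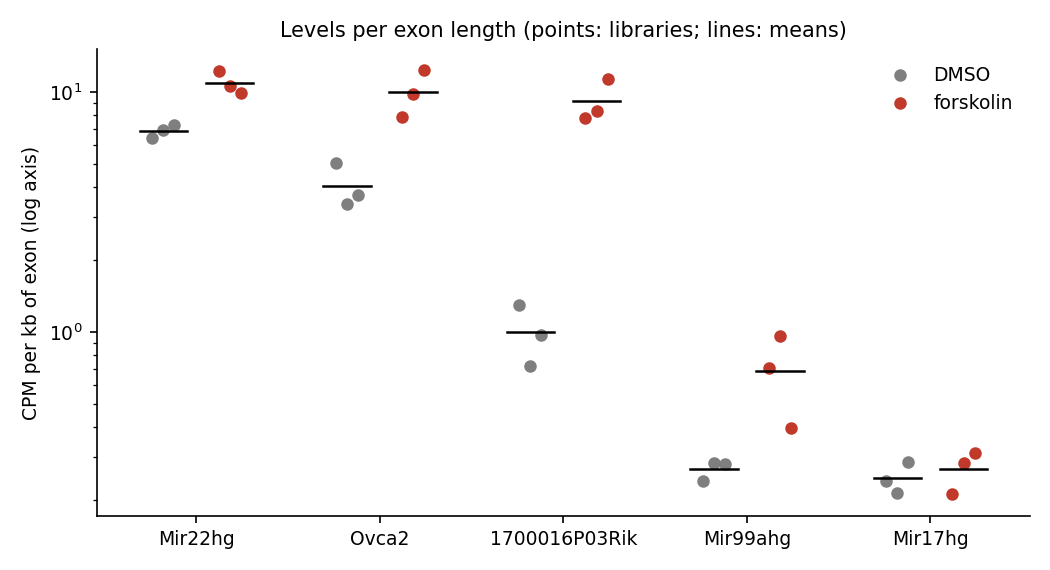
CPM per kilobase of exon (vertical axis, log scale) of the 5 genes in DMSO (grey) and forskolin (red), with 1 point per library and a line at the mean of 3. 1700016P03Rik moves from 1.0 to 9.14 CPM per kb, next to Mir22hg at 10.9 and Ovca2 at 10.01, while Mir17hg is at 0.246 and 0.268.

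Of the 5 genes, 4 had groups that lay apart with forskolin higher, as had 10.3% of all tested genes, and edgeR called 1 of the 5 higher, 1700016P03Rik, where it called 0.172% of all tested genes higher and 1.51% in either direction. DESeq2 and limma-voom with library quality weights each called 4 of the 5 higher, against 4.90% and 21.0% of all tested genes. Without library 6, edgeR also called 4 of the 5 higher, against 16.5%. In each of these 3 fits Mir17hg was the gene not called. With no low-count filter, or with a mean count of 50 or more, edgeR called 1700016P03Rik and Ovca2 higher, against 0.173% and 0.186% of the genes then tested (Mir17hg was not among the latter). With RLE factors or with library size alone, edgeR called 1 of the 5, 1700016P03Rik, and called 24 and 31 of all tested genes higher. Without any other single library, or with the GC trend removed, none of the 5 was called. In those fits edgeR called 0 of all tested genes, so the missing calls are not particular to the 5. Since the genes were taken with this comparison in view, these counts describe the selection.

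The authors' deposited table lists 1 of the 5 genes, 1700016P03Rik, at rank 23. The lowest log2 fold change among the 132 genes of the authors' deposited table is 1.501 and the lowest mean normalised count 126.0. In the main edgeR fit the values of the other 4 members, at most 1.36, lie under that fold change. In other fits they need not, with Mir99ahg at up to 1.618 and Ovca2 at up to 1.513. For 1700016P03Rik the authors' deposited table gives a log2 fold change of 2.70 ± 0.27 (SE) and an adjusted p of 7.63e-21. The gene was taken here with this comparison in view, so that p is given as a description. Its mean normalised count there is 323.5. The count table gave a mean of 152.9 on the scale of DESeq2 size factors, so the value in the authors' deposited table was 2.12 times as high. Of the 132 genes in the authors' deposited table this ratio was the highest, against a median of 0.849 and a next highest of 1.58 (Psmb8). The lowest ratio was 0.103, so other listed genes differed between the tables in the opposite direction, and the reason was not tested.

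The 3 reference genes of the cyclic AMP response had groups that lay apart, with forskolin higher. Fos, an immediate early transcription factor gene, had 101 to 186 CPM in DMSO and 831, 902 and 448 CPM with forskolin (log2 fold change 2.46 ± 0.36, edgeR adjusted p = 0.0375). Nr4a1, an orphan nuclear receptor gene, had 16.6 to 37.6 CPM in DMSO and 137, 138 and 61.6 CPM with forskolin (adjusted p = 0.0652). Crem, which encodes cyclic AMP-responsive regulators, had 7.03 to 7.46 CPM in DMSO and 12.2, 12.3 and 10.1 CPM (adjusted p = 0.0934). These 3 genes were lower in library 6 than in libraries 4 and 5, whereas 1700016P03Rik was higher there.

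The genes whose log2 CPM followed 1700016P03Rik most closely over the 6 libraries were sought in 14905 other tested genes whose mean count was 20 or more. Closest were Arl4d (Pearson r = 0.998), Abcc5 (0.995), Gm43445 (0.984), Rpl22l1 (0.982) and Ovca2 (0.977). The coefficients describe 6 points in 2 groups and share the libraries' depth and composition. Arl4d, an Arf-family GTPase gene, had 6.09, 4.13 and 4.35 CPM with DMSO (libraries 1 to 3) and 28.2, 28.8 and 35.7 CPM after forskolin (libraries 4 to 6), with its highest level in library 6, as in 1700016P03Rik. Rpl22l1, a ribosomal protein paralogue, had 4.97 to 5.09 CPM in DMSO and 15.9 to 18.6 CPM with forskolin. Abcc5, a transporter gene, had 35.7 to 38.2 and 46.0 to 49.2 CPM. Gm43445 went from 0.919 to 0.968 CPM in DMSO to 1.08 to 1.15 CPM with forskolin. On the same measure Mir22hg stood at r = 0.901 (rank 151), Mir99ahg at 0.786 (rank 855) and Mir17hg at 0.361 (rank 5034). The reference genes Fos, Crem and Nr4a1 stood at 0.931 (rank 68), 0.918 (rank 101) and 0.888 (rank 205).

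The promoter of Mir22hg is shown because, of the 4 members with a RefSeq promoter sequence, it alone held the half-site of the cyclic AMP response element, TGACG, searched on both strands. The member without such a sequence is 1700016P03Rik, so the promoter of the miR-132 and miR-212 host was not searched. Capitals mark the half-site, 176 bases before the annotated start. The window is chr11:75461289-75461588 of GRCm38.p6, plus strand.
Mir22hg promoter: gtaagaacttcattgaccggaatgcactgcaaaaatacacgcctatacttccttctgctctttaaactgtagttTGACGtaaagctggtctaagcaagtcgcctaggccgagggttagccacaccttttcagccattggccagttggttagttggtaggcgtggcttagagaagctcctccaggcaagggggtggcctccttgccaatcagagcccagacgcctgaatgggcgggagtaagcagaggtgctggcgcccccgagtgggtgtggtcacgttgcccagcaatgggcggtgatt
The half-site, whose letters are also part of the full element, was in 20.81% of 32851 promoter windows of the same length, and the full element TGACGTCA was in 1.79% of them and in none of the 4. For Mir17hg and Mir99ahg the RefSeq start lies 1511 and 93011 bp from the GENCODE start, so their windows need not be the promoters of the annotated hosts. A match of letters is a description and not a site of binding.

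Genes that make, load or destroy microRNAs were taken as a list, read against the shares over all tested genes. Those shares were 1.51% called by edgeR, 22.3% at an unadjusted edgeR p under 0.05, 10.9% called by DESeq2 and 41.9% called by limma-voom with library quality weights, each in either direction, and 33.6% were called by edgeR without library 6. The groups overlapped in 73.5% of tested genes and lay apart in 26.5%. Of 25 such genes 24 passed the low-count filter (all but Lin28a), and edgeR called none at an adjusted p under 0.05, with 5 at an unadjusted p under 0.05. DESeq2 called 1 and limma-voom with library quality weights called 9, and edgeR without library 6 called 4. The median log2 fold change of the 24 was -0.005, beside 0.02 over all tested genes, and 17 had overlapping groups. These counts were near or under the shares over all tested genes. The genes named next were chosen after their values were seen. The terminal uridylyltransferase gene Zcchc11 (also Tut4), which tails let-7 precursors, had 10.8, 11.3 and 15.2 CPM in DMSO and 20.9, 25.8 and 17.98 CPM with forskolin (log2 fold change 0.80 ± 0.20, edgeR adjusted p = 0.112). This was the gene that DESeq2 called. Zswim8, a ubiquitin ligase gene of target-directed microRNA decay, had 102 to 112 CPM in DMSO and 77.4 to 91.3 CPM with forskolin (log2 fold change -0.33 ± 0.11, adjusted p = 0.168). Ago2, the Argonaute with slicing activity, had 103 to 112 CPM in DMSO and 73.5 to 98.5 CPM with forskolin (adjusted p = 0.271). Ago3, Tnrc6a and Zcchc6 went the other way, with log2 fold changes of 0.47, 0.46 and 0.30 (edgeR adjusted p = 0.216, 0.19 and 0.215). The processing enzymes Drosha and Dicer1 had log2 fold changes of -0.09 ± 0.11 and 0.12 ± 0.10.

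Listed targets of miR-132 and miR-212 were taken from the literature of these microRNAs. All 15 passed the filter, and edgeR called 1 higher (Btg2) and 0 lower, with 4 at an unadjusted p under 0.05, against 0.172% of all tested genes called higher, 1.51% called either way and 22.3% at such a p. DESeq2 called 4 and limma-voom with library quality weights called 9, against 10.9 and 41.9%. The median log2 fold change was 0.23, beside 0.02 for all tested genes, and 12 of the 15 had overlapping groups, as had 73.5% of all tested genes. Btg2, an antiproliferative gene that is itself known as an early response gene, had 88.9, 46.8 and 47.8 CPM with DMSO (libraries 1 to 3) and 360, 374 and 238 CPM after forskolin (libraries 4 to 6). The groups did not overlap, with a log2 fold change of 2.40 ± 0.32 (SE; edgeR adjusted p = 0.0314). Without library 6 the log2 fold change was 2.57 (edgeR adjusted p = 0.00349). Without any other single library, where edgeR called no gene at all, it was 2.24 to 2.79 (adjusted p from 0.0968 to 0.288), and with the GC trend removed it was 2.43 (adjusted p = 0.150). Paip2, an inhibitor of poly(A)-binding protein, and Kdm5a, a histone demethylase gene, also had groups that did not overlap. Their log2 fold changes were 0.41 ± 0.13 and 0.47 ± 0.16, and neither passed the test (adjusted p = 0.156 and 0.167). Ache, the acetylcholinesterase gene, had 68.1, 122 and 106 CPM in DMSO and 38.9, 35.1 and 72.2 CPM with forskolin, and library 6 lay above DMSO library 1 (log2 fold change -1.02 ± 0.33, adjusted p = 0.160). Genes other than Btg2 were chosen after their values were seen.

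**Figure D5:**
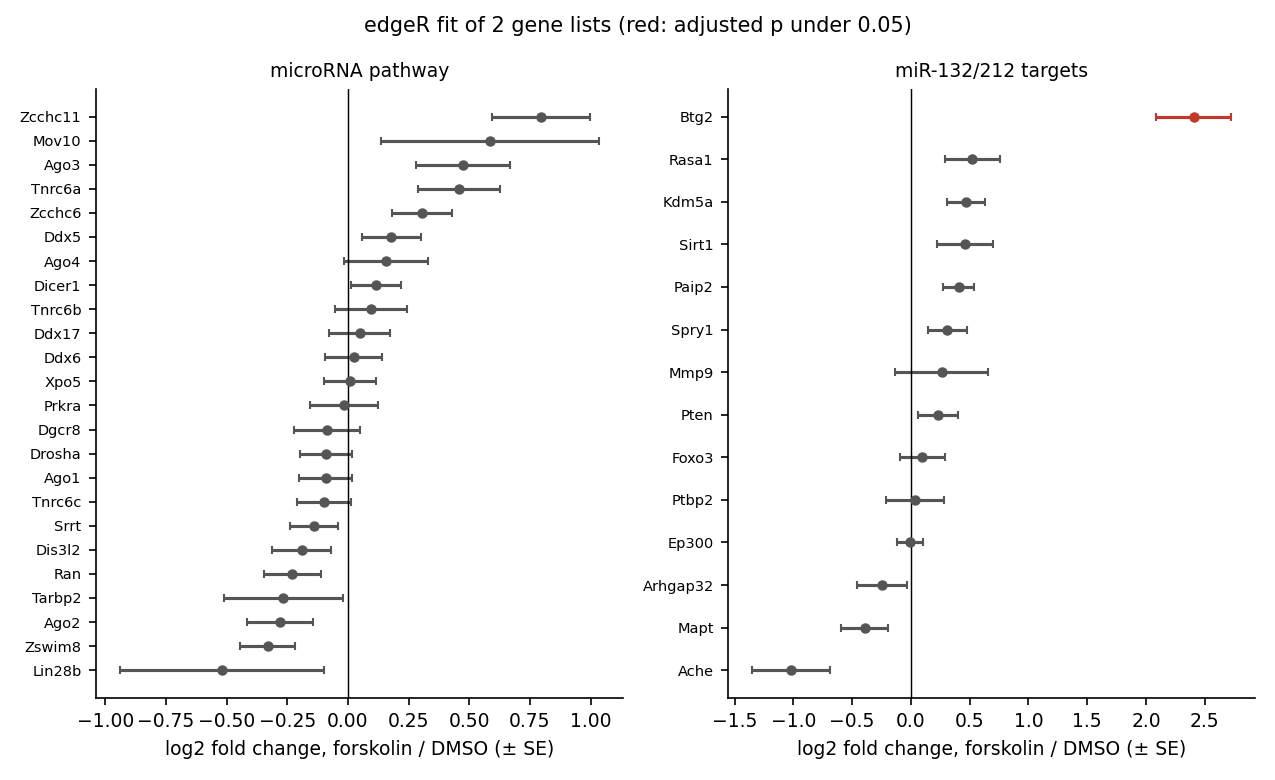
Fitted log2 fold change of forskolin over DMSO (horizontal axes, ± SE, 3 libraries per group, separate scales) for the 24 tested genes of the microRNA pathway (left) and 14 of the 15 listed targets of miR-132 and miR-212 (right), with genes that passed the edgeR test in red. Only Btg2, at 2.40, is red.

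The match to the shared seed, GACTGTT, was found on the sense strand of the longest annotated 3′ untranslated region of 14 of the 15 listed targets, all but Ache, and in 11.1% of 21109 coding genes. The list consists of known targets, so this share follows from how it was made. A site of Kdm5a (chromosome 6), 1 of the 3 targets with groups that did not overlap, is shown with the match in capitals.
Kdm5a site: tctctgactactGACTGTTctatagatt

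Genes near the hosts were counted within 300 kb. Of 64 such rows 34 passed the filter, and edgeR called none, with 9 at an unadjusted p under 0.05. DESeq2 called 3 and limma-voom with library quality weights called 15. These counts were near, or for edgeR under, the shares of 1.51, 22.3, 10.9 and 41.9% over all tested genes. The median log2 fold change was -0.03 over the 15 tested neighbours of 1700016P03Rik, -0.05 over the 20 of Mir22hg and 1.23 over the 8 of Mir99ahg, which include the intronic rows described above. Windows of the first and the second of these overlap. Among coding neighbours chosen after their values were seen, Rtn4rl1, a Nogo receptor homologue 16150 bp from 1700016P03Rik, had 49.4 to 55.9 CPM in DMSO and 25.1, 26.9 and 39.4 CPM after forskolin (log2 fold change -0.78 ± 0.18, edgeR adjusted p = 0.0989). Usp25, a deubiquitinase gene 119537 bp from Mir99ahg, had 18.8, 18.1 and 26.8 CPM in DMSO and 37.5, 39.1 and 24.5 CPM with forskolin, with library 6 again inside the DMSO range (adjusted p = 0.177).

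Other microRNA hosts were counted in the same way. Of 5 further rows of this kind 3 passed the filter. None of the 3 was called by edgeR or had an unadjusted edgeR p under 0.05, against 1.51% and 22.3% of all tested genes. DESeq2 called 0 and limma-voom with library quality weights called 1, where they called 10.9 and 41.9% of all tested genes, and 3 rows are too few to set against these shares. All 3 (Mir124-2hg, Mir124a-1hg and Mir143hg) had negative log2 fold changes, with a median of -0.53. The first and the second are described because they held more counts than the third, a choice made after their values were seen. Mir124-2hg, a host of the neuronal microRNA miR-124, had 3.18, 6.07 and 7.55 CPM in DMSO and 1.91, 2.17 and 7.62 CPM in libraries 4, 5 and 6. Its low values were thus in the libraries that were also low in neuron markers, and the part of those markers was not tested. Mir124a-1hg had 4.28 to 8.64 CPM in DMSO and 4.91 to 6.54 CPM with forskolin.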

How the data were processed

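Total RNA was sequenced from 6 libraries, 3 per group, assigned from the labels. The authors deposited whole-number counts per gene symbol, per the file headers; Salmon, DESeq and GRCm38 are named in the submitters' processing notes without versions, and how whole-number counts were made and whether strand was used are not given in the sources used here. The columns of a second deposited table are, per the file headers, a signal (normalised count averaged over libraries), log2 fold changes and their errors, a test score and p-values. Total counts were 28342764 to 47548379 per library.

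Tools were edgeR 4.0.16, DESeq2 1.42.0 and limma 3.58.1 under R 4.3.3. Rows passed filterByExpr (minimum count 10, minimum total 15). TMM scaling, glmQLFit and glmQLFTest with group as the only term were used over all 16233 rows, with Benjamini-Hochberg adjustment and a threshold of 0.05. CPM are counts over TMM-scaled library size, and log2 CPM used a prior count of 2. Coordinates and overlaps came from GENCODE M21 (GRCm38), matched by symbol. The tests were checked on simulated counts, with a pass mark that was reset after a first run had missed it. Alternatives were DESeq2, limma-voom with library quality weights, RLE factors, library size alone, no low-count filter, a mean count of at least 50, removal of a GC trend, and leaving out each library.

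The members and gene lists were chosen with earlier results of these data known. Genes were named by rule: the 5 members, list genes that edgeR called (up to 6 per list), the nearest coding gene of each member, the 5 genes most alike to 1700016P03Rik, and Fos, Crem and Nr4a1. Others are said to have been chosen after their values were seen. The values of 1 listed target are not reported here.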

Additional observations from a re-analysis of the deposited data

How the results depend on the processing

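No paired analysis was possible because the labels number the libraries 1 to 6 across the groups, which share no number. Over all tested genes edgeR called 245, 28 higher and 217 lower. DESeq2 called 1775 (796 higher, 979 lower), library quality weights 6795 (3403 and 3392), RLE factors 137 (113 lower), and no filter gave 46 higher. With the GC trend removed edgeR called 0 genes in either direction, and 0 listed targets. Leaving out 1 library gave 0 calls except for library 6, without which there were 5698 (2796 higher, 2902 lower). Of the lists, the microRNA pathway went from 0 calls to 1 with DESeq2, 9 with quality weights, and 0 to 4 on leaving out a library. The targets of miR-132 and miR-212 went from 1 to 4, 9, and 0 to 6, the neighbours from 0 to 3, 15, and 0 to 13, and other hosts from 0 to 1 with quality weights and 0 to 1 on leaving out a library. Each highest value on leaving out a library was without library 6. Apart from the construction of fits with fewer libraries, the cause was not tested.

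The fold changes of 1700016P03Rik and Ovca2 moved by less than the pooled SD of log2 CPM within groups under all 13 alternatives. With the GC trend removed, those of Mir22hg and Mir17hg moved by more than that SD (0.127 and 0.243), to 0.50 and -0.28, and that of Mir99ahg by about that SD (0.463), to 0.90. Mir17hg was also -0.02 without library 6. It was left out by the mean count of at least 50. For Mir17hg and the hairpin rows, counting error at this depth limits what could be seen.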

Other observations

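Of 2155 rows that GENCODE types as microRNA genes, 1307 held no count in any library and 1920 held at most 3 counts in every library. Only 33 passed the low-count filter, and edgeR called 0 of them, with 11 at an unadjusted p under 0.05, while DESeq2 called 3 and limma-voom with library quality weights called 13. Over all tested genes these shares were 1.51, 22.3, 10.9 and 41.9%. The groups lay apart in 12 of the 33 rows, 7 higher and 5 lower with forskolin, against 26.5% of all tested genes. The 3 rows named next, chosen after their values were seen, followed neither group. Mir541 held 5, 186 and 21 counts in DMSO libraries 1 to 3 and 216, 103 and 29 counts in forskolin libraries 4 to 6. Mir6236 held 15, 146 and 11 counts and then 165, 130 and 0, and Mir5099 held 4, 37 and 0 counts and then 21, 40 and 0. Libraries 2, 4 and 5 were thus high in all 3 rows, a split that crosses the treatment groups.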
